A study of Drosophila melanogaster with 3 samples.

Results

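ORC2 sites on the X chromosome of Kc167 cells are described here by their position, width, spacing and score. The members are the peaks that the authors' joined list of both ORC2 ChIP libraries places on X with a start below 20 Mb, counted from the telomeric end in FlyBase release 5. They number 1065 of the 5159 peaks in that list (20.6%). The joined list holds another 72 peaks on X beyond that limit. The first member lay at 23808 to 23836 and the last at 19786068 to 19786389, and the first peak beyond the limit lay at 20053086 to 20053343, so no peak started within 50 kb of it.

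Kc167 is a female Drosophila melanogaster line derived from late embryos, of genotype se/e, grown as an asynchronous culture. The series has 3 samples of this line, which are 2 ORC2 ChIP libraries from different extractions and 1 input DNA. No other line, treatment or cell-cycle stage was compared. The antibody was a crude rabbit polyclonal serum raised against full-length ORC2 protein. The input is not analysed here.

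The origin recognition complex (ORC) is a complex of several subunits, ORC2 among them, that binds DNA and loads the replicative MCM helicase before S phase. Each place where it sits is therefore a potential start of DNA replication, although only some are used in a given cell cycle. In Drosophila ORC recognises no fixed sequence and is known to occupy open chromatin, often near active promoters. The X chromosome of female cells is not bound by the male-specific dosage compensation complex. How ORC sites are placed along a chromosome sets where replication can begin and how far a fork may have to travel.

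The members were short sites spread over the whole interval. They amounted to 53.3 per Mb (exact 95% Poisson interval 50.1 to 56.5, counting error only) and together covered 283 kb, or 1.42% of the DNA. The median width was 194 bp, with an interquartile range of 131 to 342 bp, a minimum of 8 bp and a maximum of 1606 bp. Only 12 members were narrower than 50 bp, 122 (11.5%) were wider than 500 bp and 12 were wider than 1 kb. A joined site takes the outer limits of the overlapping peaks of both replicates, which held for all 1065 members, so its width is an upper outline. The score of a joined site is the mean of the replicate scores in all 1026 members made of 1 peak from each replicate. The score is the authors' own value in an unstated unit, and its median over the members was 2.86 (interquartile range 2.35 to 3.55).

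The replicates served as the check on these sites. Over the same interval replicate 1 had 1673 peaks (83.7 per Mb, 79.7 to 87.8) with a median width of 135 bp. Replicate 2 had 1294 peaks (64.7 per Mb, 61.2 to 68.3) with a median width of 110.5 bp. Read depth is unknown for both. Of the replicate 1 peaks, 1071 (64.0%, exact 95% binomial interval 61.7 to 66.3%) were overlapped by at least 1 bp by a replicate 2 peak, against 57.8% of replicate 1 peaks over all chromosomes. Of the replicate 2 peaks, 1101 (85.1%, 83.0 to 87.0%) met a replicate 1 peak in this way, against 80.5% over all chromosomes. Both shares on X were thus a few percentage points above those of the whole lists, which include the X peaks.

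Width went with reproducibility in both libraries. Among replicate 1 peaks, 16.5% of the 243 under 50 bp had a counterpart, as did 40.9% of those of 50 to 99 bp, 74.8% of those of 100 to 199 bp and 95.2% of the 207 of 400 bp or more. In replicate 2 the corresponding shares were 50.8%, 81.7%, 97.4% and 100%, the last being 84 of 84 peaks (95.7 to 100%). A wide peak meets an overlap of 1 bp more easily, which adds to this trend. Shared peaks also had higher median scores than unshared ones, 2.90 against 2.15 in replicate 1 and 2.81 against 2.47 in replicate 2. The 602 unshared peaks of replicate 1 lay at a median of 2336 bp from the nearest joined site, and 406 of them (67.4%) were within 5 kb of one. The 193 unshared peaks of replicate 2 lay at a median of 2700 bp, with 117 (60.6%) within 5 kb. Of the interval itself, 31.8% lay within 5 kb of the midpoint of a joined site. More than 20 kb away were 51 (8.47%) and 22 (11.4%) of the unshared peaks, and 31.3% of the interval.

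Where 1 peak of each replicate formed a member, both located it closely. Midpoints in the 1026 pairs differed by a median of 15.3 bp, in 90% of pairs by 87 bp or less, and at most by 298 bp. The overlap rule itself bounds these distances. The replicate 2 peak was narrower in 828 pairs (80.7%), and the median widths were 177 bp (replicate 1) and 123.5 bp (replicate 2). Scores of the pairs followed each other, with a Spearman coefficient of 0.787 across sites, and widths did so with 0.698. Both are descriptions over sites of the same 2 libraries. Dividing the replicate 2 score by that of replicate 1 gave a median of 0.980, and 90% of the ratios lay between 0.699 and 1.38.

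**Figure D1:**
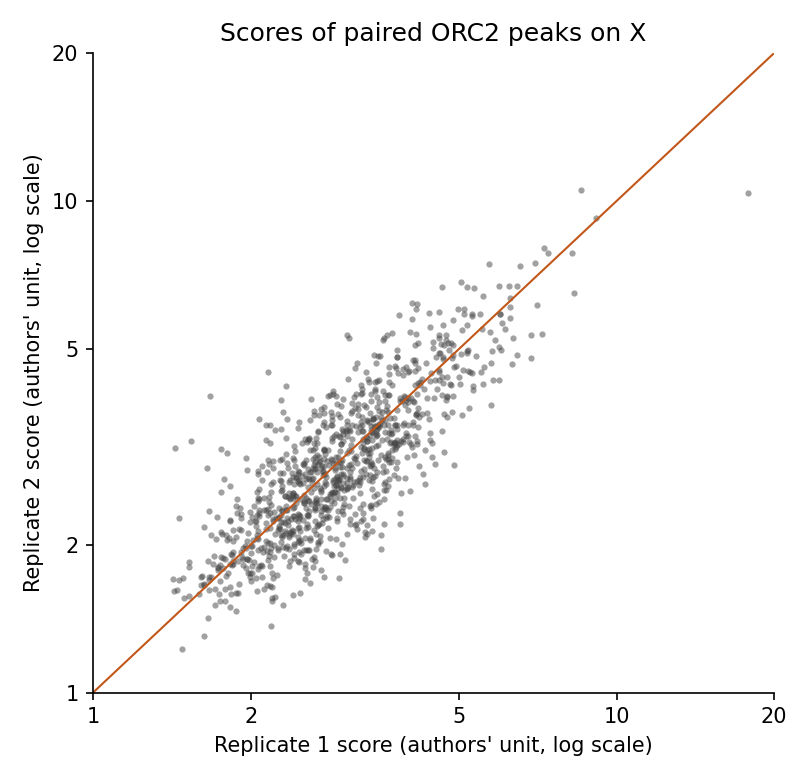
Replicate 2 score against replicate 1 score (both in the authors' unit, log scales) for the 1026 members made of 1 peak from each replicate, with the line of equality. Points follow the line, and the highest replicate 1 score, 17.8, lies below it at 10.4 in replicate 2.

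Only 4 pairs differed by more than 2-fold in score, and all of them were higher in replicate 2. They lay at 9176827 to 9177266, 10212461 to 10212982, 11031779 to 11032493 and 14978408 to 14978809. At the site at 11031779 the scores were 1.43 in replicate 1 and 3.15 in replicate 2, over widths of 708 and 127 bp. The other 3 had the same form, with replicate 1 widths of 409, 496 and 383 bp and replicate 2 widths of 145, 82 and 129 bp. In these pairs the lower score therefore belonged to the wider call.

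Along the arm the number of sites varied less than 2-fold between blocks of 1 Mb. The 20 blocks held 53.3 ± 8.55 sites (SD over blocks), with a lowest count of 35, a median of 54.5 and a highest of 65. The richest block, from 7 to 8 Mb, held 65 sites (50.2 to 82.8), with 95 peaks in replicate 1 and 75 in replicate 2. The block from 11 to 12 Mb followed with 64 sites (49.3 to 81.7), and that from 2 to 3 Mb with 63. The poorest block, from 14 to 15 Mb, held 35 sites (24.4 to 48.7). It was also lowest in each library, with 60 peaks in replicate 1, a count that the block from 0 to 1 Mb shared, and 44 in replicate 2. The variance of the block counts was 1.37 times their mean. Counting error alone would give 1 on average, with a spread over 20 blocks. Whether 1.37 lies beyond that spread was not tested. Across the 20 blocks the counts of the replicates correlated with a Pearson coefficient of 0.804 and a Spearman coefficient of 0.740, given as a description because they share genome and antibody.

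**Figure D2:**
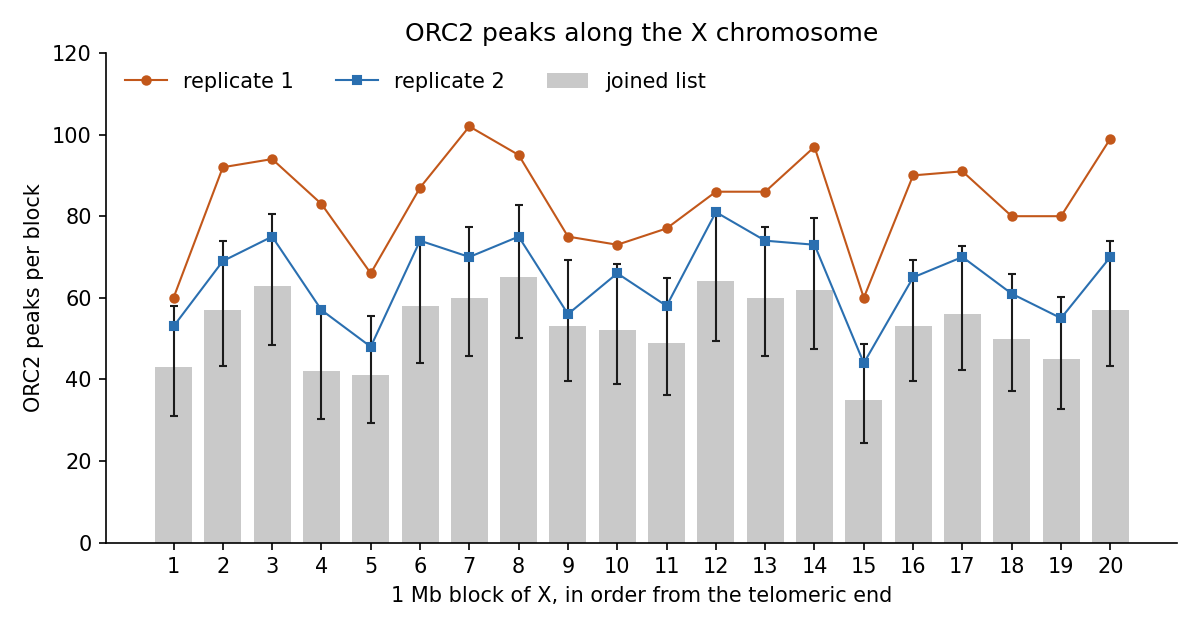
ORC2 peaks in each of 20 successive blocks of 1 Mb of X, numbered from the telomeric end: joined list (bars, with exact 95% Poisson intervals), replicate 1 (circles) and replicate 2 (squares). The joined counts run from 35 in block 15 to 65 in block 8, and in both replicates the 3 lowest counts are those of blocks 1, 5 and 15.

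The telomeric and the centromeric side of the interval held almost equal numbers of sites. From 0 to 10 Mb there were 534 sites and from 10 to 20 Mb there were 531, a ratio of 0.994 (0.880 to 1.12). In replicate 1 the ratio was 1.02 (0.928 to 1.13) and in replicate 2 it was 1.01 (0.907 to 1.13). In parts of 5 Mb, the densities were 49.2, 57.6, 54.0 and 52.2 sites per Mb from the telomere inward. Their intervals all overlapped.

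The distance from site to site varied widely. Neighbouring midpoints lay a median of 6474 bp apart, while the mean was 18574 bp. The interquartile range of the spacing was 1560 to 21751 bp, its minimum 315 bp and its maximum 283574 bp. Of the 1064 spacings, 475 (44.6%) were under 5 kb, 308 (28.9%) were from 5 to 20 kb, and 106 (9.96%) were over 50 kb. Those 106 spacings took up 51.4% of the length between the first and the last member. In 36 cases neighbours were more than 100 kb apart, against 29 in replicate 1 alone and 32 in replicate 2 alone. The long intervals were thus nearly as many in the single libraries, whereas the short spacings were more numerous there, with 966 under 5 kb in replicate 1 and 636 in replicate 2. From a site to its nearest neighbour the median distance was 2353 bp, against 1139 bp in replicate 1 and 1564 bp in replicate 2.

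**Figure D3:**
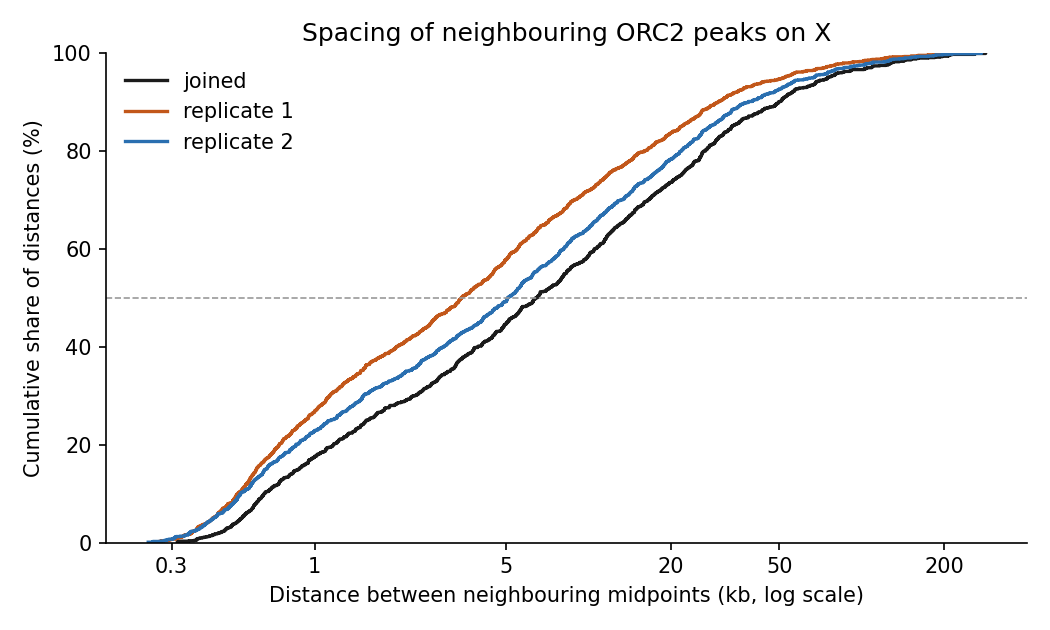
Cumulative share of the distances between neighbouring midpoints (kb, log scale) on X below 20 Mb for the joined list and for each replicate. The curves cross 50% at 6474 bp in the joined list, 3449 bp in replicate 1 and 5089 bp in replicate 2.

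Windows of 100 kb showed the same contrast between crowded and empty stretches. Of 200 windows, 34 held 10 or more sites and 22 held none. The 34 crowded windows made up 17.0% of the interval and held 415 sites (39.0%). In the 22 empty windows together there were 14 peaks in replicate 1 and 5 in replicate 2, and 11 windows had no peak in either library. Empty windows occurred singly or in runs of at most 2. The Pearson coefficient between replicate counts over the 200 windows was 0.927, and the Spearman coefficient was 0.934.

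The densest stretch of the interval lay between 12.5 and 12.7 Mb. The window from 12500001 to 12600000 held 20 sites, 3.76 times the mean of 5.33, with 25 peaks in replicate 1 and 26 in replicate 2. The next window, from 12600001 to 12700000, held 15 sites, with 24 and 15 peaks. Together, from 12505867 to 12658914, these windows had 35 sites in 153 kb (229 per Mb). Their median width was 327 bp, wider than the 194 bp of all members, and 8 of the 35 exceeded 500 bp. Their scores ran from 1.35 to 4.97 with a median of 2.81. None of the 35 exceeded a score of 5, which 5.92% of all members did. The lowest score of all members, 1.35, belonged to the site at 12572313 to 12573578, where it was 1.48 in replicate 1 and 1.23 in replicate 2. That site was 1266 bp wide, the widest member in this stretch.

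This crowded stretch began close to a nearly empty one. Between 11923185 and 12357489, a stretch of 434 kb, the joined list had a single site, at 12097629 to 12098001. Replicate 1 had 2 peaks there and replicate 2 had 1. That site was also the most isolated member, 175 kb from its nearest neighbour, with a score of 2.18 in replicate 1 and 2.16 in replicate 2. From 12357490 to 12658914, the adjoining 301 kb, there were 53 sites (176 per Mb), with 75 peaks in replicate 1 and 65 in replicate 2. The density per Mb was thus 2.30 on one side of position 12357490 and 176 on the other, in limits chosen after the positions were seen.

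Other crowded windows were scattered along the arm. The window from 2000001 to 2100000 held 16 sites (23 peaks in replicate 1 and 19 in replicate 2), and that from 13700001 to 13800000 also held 16 (19 and 18 peaks). The window from 5600001 to 5700000 held 15 sites (18 and 15 peaks) and had the lowest median score of the 5 densest windows, 2.26. In all 5 the median width lay above that of all members, between 233 and 349.5 bp. Their median scores lay between 2.26 and 2.94, above the members' median of 2.86 only in the window that begins at 12600001. The 5 windows were ranked by joined sites alone. The window from 3600001 to 3700000, with 14 joined sites, had 23 peaks in replicate 1 and 17 in replicate 2. In both libraries that is more than in the window that begins at 5600001.

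Sites were next grouped into chains, defined as runs of at least 3 sites with 5 kb or less of free DNA between neighbours. There were 113 chains holding 479 sites (45.0%), beside 122 pairs and 342 single sites. Most chains were short, since 50 had 3 sites, 44 had 4 or 5 and 19 had 6 or more. The median span was 5.68 kb and the longest 16.2 kb. All chains together spanned 715 kb, or 3.57% of the interval. A median of 20.3% of a chain's length was covered by its sites, so most of the DNA within a chain lay outside called peaks. In the single libraries, 62.6% of replicate 1 peaks and 50.6% of replicate 2 peaks were in chains.

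How peaks were separated by the caller bears on the chains. Free DNA between neighbouring peaks was never under 200 bp in either replicate, whereas 254 neighbours in replicate 1 and 144 in replicate 2 were 200 to 399 bp apart. Chains therefore count called peaks, and whether several peaks of a chain belong to 1 broad bound region was not tested. When sites with 1 kb or less between them were counted as 1, the density was 41.4 per Mb, and with 5 kb it was 28.9 per Mb, or 577 groups. Windows with 10 or more sites then numbered 6 and 0, against 34, while the count of empty windows was 22 and 23.

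The chain with the most sites lay inside the densest window, at 12547696 to 12563914. It held 12 sites in 16.2 kb, and its span contained 14 peaks of replicate 1 and 14 of replicate 2, while 27.5% of its length was covered. Its sites were 65 to 875 bp wide and scored 1.54 to 3.73. In it, 2 replicate 1 peaks and 1 replicate 2 peak lacked a counterpart, against 602 of 1673 and 193 of 1294 over the interval. Chains ranked by joined sites hold shared peaks by construction. The counts of unshared peaks in this and the following chains are therefore no check on them. The second chain, at 11603969 to 11614560, held 9 sites in 10.6 kb and no unshared peak. It contained one of the highest-scoring sites of the interval, with 6.95 over 92 bp at 11604612 to 11604703, next to sites of 1.76 to 3.84.

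The next chains had 8 sites each, and 5 chains reached that number. That at 2187284 to 2200141 spanned 12.9 kb and included a site of 1096 bp, and 3 replicate 1 peaks and 1 replicate 2 peak in it were unshared. The chain at 3633683 to 3643095 spanned 9.41 kb and had a median score of 3.39. The chain at 7589033 to 7599424 had the lowest coverage of these, 13.4% of 10.4 kb, with sites of 45 to 327 bp and a median score of 2.30. On either side of it, 15.9 and 5.46 kb were free of sites. The drawing of the first 5 chains shows the peaks of both libraries beside the joined sites.

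**Figure D4:**
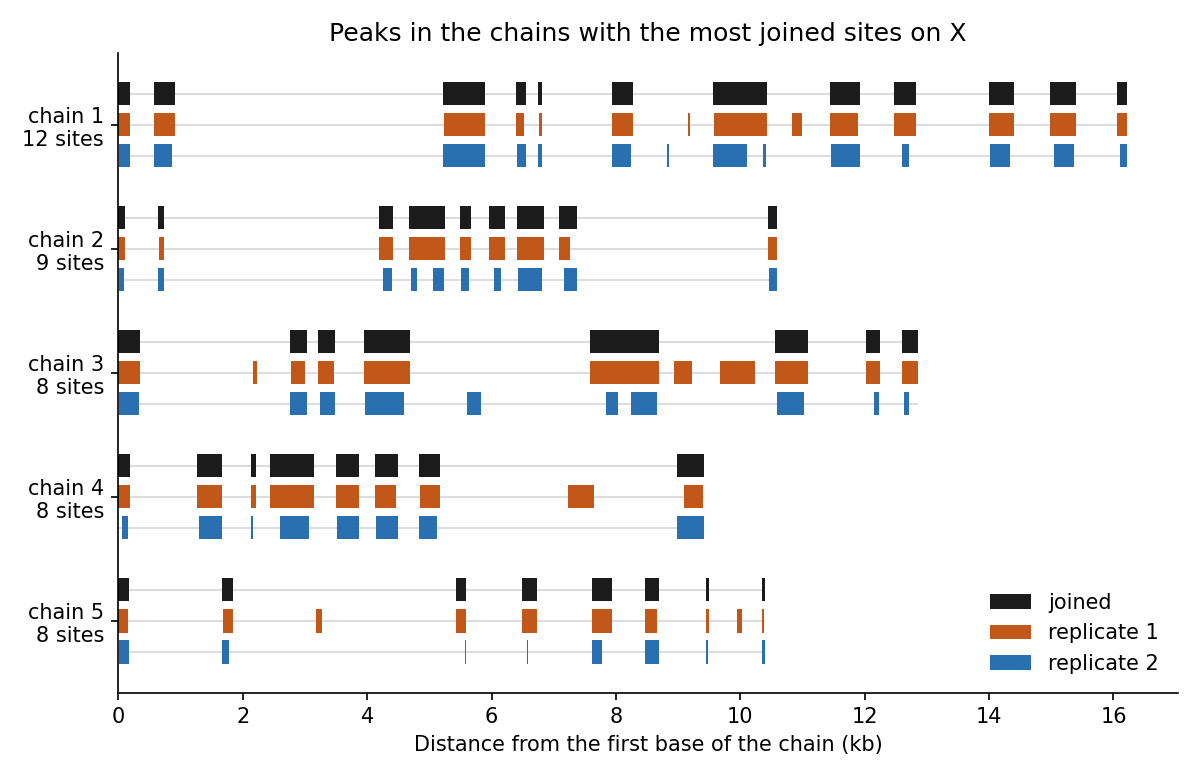
The 5 chains with the most joined sites, drawn to scale against the distance from their first base (kb): joined sites (black), replicate 1 peaks (orange) and replicate 2 peaks (blue), with grey lines for the span. The chains hold 12, 9, 8, 8 and 8 joined sites, each drawn at its called width.

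Sites in chains had larger median widths than sites that stood alone, and slightly lower median scores. The median width was 174 bp for the 342 single sites, 184 bp for the 244 sites in pairs, 212 bp for the 345 in runs of 3 to 5 and 260.5 bp for the 134 in runs of 6 or more. The replicate peaks within these sites were compared in the same joined classes, not in runs of their own. Where a site held several peaks of a replicate, their widths were summed. The order from single sites to the longest runs was the same in replicate 1, with 162, 177.5, 195 and 250 bp. Replicate 2 gave 122.5, 118, 128 and 181.5 bp, so there only the longest runs stood apart. Median scores were 2.91, 3.02, 2.76 and 2.74 in the same order. A score above 5 was found in 63 of all members (5.92%), and in the same order of classes in 26 (7.60%), 14 (5.74%), 17 (4.93%) and 6 (4.48%). The interquartile ranges of width (125 to 284 bp for single sites and 163 to 422 bp in the longest runs) overlapped widely. Wide sites also leave less free DNA, so width enters the definition of a chain to a small extent.

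**Figure D5:**
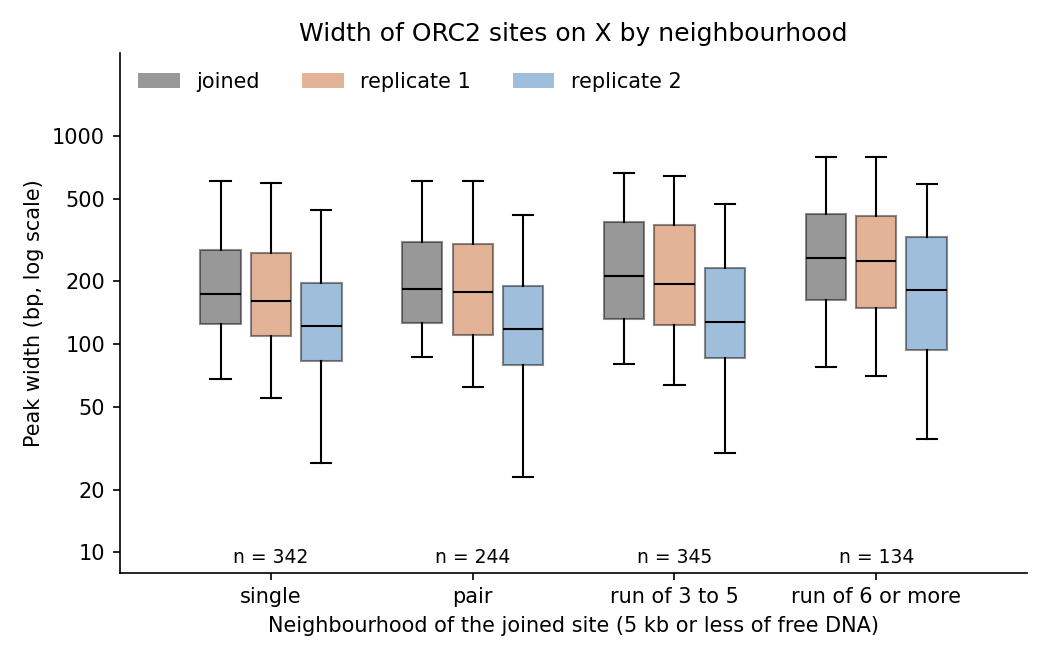
Width of members (bp, log scale) by the size of the joined run they belong to, for the joined sites and for each replicate. The replicate width is the total over all peaks of that replicate within a site. Boxes give the quartiles and the median, and whiskers the 5th and 95th percentiles. The joined medians rise from 174 bp for single sites to 260.5 bp in runs of 6 or more.

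The centromere-side part of the interval, from 15 to 20 Mb, had a density like that of the rest but a lower share of sites in chains in the joined list. Of its 261 sites, 77 (29.5%) were in chains, against 50% from 0 to 15 Mb. Its median spacing was 9221 bp, against 6273, 5581 and 4833 bp in the 5 Mb parts before it. It had 2 empty windows of 50, against 4, 5 and 11 in the parts before it. Its longest spacing between members was 158 kb, against 208 to 284 kb. Spacings stop at the last member, which ended at 19786389. The stretch without a site from there to the next X peak, at 20053086, is thus not among them. Replicate 2 alone gave 42.7% in chains beyond 15 Mb and 53.2% before, a smaller difference. In replicate 1 alone the shares were 61.1% and 63.2%, differences of -2.04 percentage points in replicate 1 and -20.5 points in the joined list. The median spacing from 15 to 20 Mb was nonetheless the longest of the 4 parts in both libraries, 4144 bp in replicate 1 and 6387 bp in replicate 2.

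Long intervals without a site were the counterpart of the chains. Only stretches between neighbouring members were ranked, and the 10 longest of these took up 2209 kb, or 11.05% of the interval. The stretch after the last member was thus left out of the ranking and the total. It runs from 19786389 past the limit of the interval to the next X peak at 20053086, and is long enough to be among the 10. The longest ran from 7218982 to 7502370 (283 kb), within the block that had the most sites of all. It held 3 peaks in replicate 1 and 1 in replicate 2, none of them overlapping. The next, from 12098002 to 12357489 (259 kb), contained 1 replicate 1 peak of 88 bp. That from 14217035 to 14474491 (257 kb) contained 1 replicate 2 peak of 54 bp. The interval from 13890506 to 14103060 (213 kb) differed from these, since replicate 1 had 8 peaks in it, up to 316 bp wide with a highest score of 4.03, and replicate 2 had none.

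The remaining 6 long intervals measured 185 to 209 kb. They began at 10793568, 2659826, 4977934, 173698, 9783988 and 4618453, in order of decreasing length. Replicate peaks split some of them. The longest stretch free of peaks of both replicates was 104 kb in that from 2659826, 103 kb from 4977934 and 96.4 kb from 9783988. It was 187 kb in that from 10793568, 195 kb from 173698 and 185 kb from 4618453. The interval from 4618453 to 4802993 was the only one of the 10 without a peak in either replicate. The interval from 173698 to 370571, near the telomeric end, contained 1 replicate 1 peak of 23 bp. In that from 2659826 to 2867787, replicate 2 had a peak with a score of 8.77, only 18 bp wide and 0.789 kb from a joined site. All 10 intervals together contained 20 peaks of replicate 1 and 7 of replicate 2. That is 9.05 and 3.17 per Mb, against 30.1 and 9.65 unshared peaks per Mb over the whole interval. Sequence gaps and regions where short reads cannot be placed were not analysed here, so their part in the empty intervals was not tested.

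Pairs of long intervals set off 2 sparse stretches. From 13890506 to 14474491, a stretch of 584 kb, there were 5 sites (8.56 per Mb), all between 14103061 and 14217034. Replicate 1 had 17 peaks there and replicate 2 had 8. The strongest of the 5, at 14141185 to 14141336, scored 5.53 in replicate 1 and 5.48 in replicate 2, with a second site of 3.50 at 0.432 kb from it. The other 3 scored 2.57, 2.32 and 2.19. From 4618453 to 5183870, a stretch of 565 kb, there were 11 sites (19.5 per Mb), all between 4802994 and 4977933. Of these, 3 formed a chain at the telomeric edge that included a site of 1339 bp at 4803932 to 4805270, the third widest of all members.

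Sites far from any neighbour were few. In 15 members the nearest neighbour was more than 50 kb away, against 11 peaks in replicate 1 alone and 10 in replicate 2 alone. After the site at 12097629 described above, the most isolated were at 829097 to 829796 (91.3 kb), 2867788 to 2867855 (86.1 kb), 9672594 to 9672978 (84.8 kb) and 1028859 to 1028977 (80.3 kb). These distances run between joined sites. Within replicate 1 alone, another peak lay 5285.5 bp from the site at 829097 and 427.5 bp from that at 1028859. For the site at 2867788 that distance was 54006.5 bp. The isolated sites differed in form. The site at 829097 was 700 bp wide in replicate 1 and 418 bp in replicate 2, with scores of 2.41 and 2.13. The site at 2867788 was 50 and 68 bp wide, with scores of 2.86 and 3.58. The scores of the 5 sites ran from 2.18 to 3.997 in replicate 1 and from 2.13 to 3.75 in replicate 2.

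The highest scores are given next, with the width of each site. Ranks are used within X only, since the most frequent score differed between X and 2L. It was 3.04928 on X and 3.05106 on 2L in replicate 1, and 3.50884 and 3.24339 in replicate 2. The highest-scoring member, at 12861518 to 12861607, had 17.8 in replicate 1 over 11 bp and 10.4 in replicate 2 over 90 bp. It stood alone, 57.5 kb from its neighbour. The first member of the arm, at 23808 to 23836, was second, with 8.54 over 29 bp in replicate 1 and 10.5 over 21 bp in replicate 2. The third, at 19220909 to 19221040, was wider and closely matched, at 9.15 and 9.24 over 132 and 112 bp. The site at 10242092 to 10242413 followed with 8.20 and 7.84, and that at 13289983 to 13290332 with 7.26 and 8.04.

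The other 5 of the 10 highest lay at 17143478 (joined score 7.61), 16645921 (7.40), 19559883 (7.24), 11604612 (6.95) and 11048033 (6.60). These 10 sites were 29 to 350 bp wide, with a median of 132 bp. Single sites and chains each supplied 4 of them, and the other 2 were in pairs. Of the 10, 9 lay beyond 10 Mb. Of all 63 members scoring above 5, 40 (63.5%) lay beyond 10 Mb, as did 44 of 76 peaks in replicate 1 (57.9%) and 52 of 87 in replicate 2 (59.8%). At any score, 531 of 1065 members lay beyond 10 Mb, with 846 of 1673 peaks in replicate 1 and 651 of 1294 in replicate 2. The share beyond 10 Mb was thus smaller over more peaks than among the 10 highest. Whether it differs from the share at any score was not tested.

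The 10 widest members measured 1113 to 1606 bp and scored 1.35 to 3.85, with a median of 2.57. None was among the 10 highest scores, and 2 of them, with 3.85 and 3.72, lay above the members' upper quartile of 3.55. The widest, at 5608707 to 5610312, was a single peak of 1606 bp in replicate 1 (score 1.75), whereas the replicate 2 peak was 318 bp wide (2.12). The site at 12468694 to 12470106 was 1 peak of 1413 bp in replicate 1 and 3 peaks with a total of 722 bp in replicate 2. Wide calls agreed better at 12572313, described above, with 1266 and 1180 bp, and at 16110624 to 16111875, with 1217 and 1047 bp. In 7 of the 10 the site was in a chain. The other 3, at 10638370, 16110624 and 18757615, stood alone, with 15.6 to 27.7 kb to the nearest neighbour. Over all members width and score were unrelated in rank (Spearman coefficient -0.0116). In the single libraries the coefficient was 0.206 in replicate 1 and 0.141 in replicate 2.

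Some peaks of high score had no counterpart. The highest in replicate 1 were at 5593565 to 5593571 (8.71 over 7 bp), 13229073 to 13229097 (7.62 over 25 bp) and 15405664 to 15405728 (7.47 over 65 bp). In replicate 2, after the 8.77 over 18 bp at 2660517, they were at 3190129 to 3190206 (7.24 over 78 bp) and 11658879 to 11658916 (6.48 over 38 bp). All 5 highest in each library were 7 to 78 bp wide. The widest unshared peaks had the opposite form. In replicate 1 they measured 543 to 659 bp, and 4 of the 5 scored 1.27 to 1.84 and lay 0.670 to 0.863 kb from a joined site. The exception was at 13884482 to 13885093, with a score of 3.51 and 4.37 kb to the nearest site. In replicate 2 the widest measured 201 to 256 bp.

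The X interval was set beside 2L and 3L under the same limit of 20 Mb, the arms that are also numbered from their telomere. The joined list had 53.3 sites per Mb on X (50.1 to 56.5), 38.2 on 2L (35.5 to 41.0) and 40.6 on 3L (37.8 to 43.4). In replicate 1 the densities were 83.7, 64.5 and 72.8 per Mb, and in replicate 2 they were 64.7, 49 and 50.8 per Mb. X was highest in each library, and its counting intervals lay above those of both arms. These intervals treat sites as independent. Over 100 kb windows, however, the variance of the joined counts was 3.11 times their mean on X, 3.47 on 2L and 3.04 on 3L. In replicate 1 it was 4.06, 4.94 and 4.87 times, and in replicate 2 it was 3.84, 4.42 and 3.55 times. The intervals are therefore too narrow for counts that vary this much. With sites 5 kb or less apart counted as 1, the joined list gave 28.9 groups per Mb on X, 23.8 on 2L and 24.9 on 3L. Replicate 1 gave 34.4, 30.4 and 32.35 groups per Mb, so X and 3L were close there. Replicate 2 gave 32.15, 27.65 and 28.65 groups per Mb. The difference in density between X and these arms was thus smaller in groups than in sites. With 2 libraries an exact sign-flip test of these differences cannot give a two-sided p below 0.5, so none was run.

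Further measures were set side by side on the same arms. The share of sites in chains was 45.0% on X, 34.3% on 2L and 34.9% on 3L, and crowded windows numbered 34, 15 and 17. Empty windows numbered 22 on X, 33 on 2L and 28 on 3L. Chains and windows use fixed limits, so a higher density alone shifts these measures. The richest window held 20 sites on X, 19 on 2L and 20 on 3L. Median widths were close, at 194, 198 and 181 bp. The longest spacing was 284 kb on X, 372 kb on 2L and 332 kb on 3L. Counterparts in the other library were found for 64.0% of replicate 1 peaks on X, 59.6% on 2L and 56.0% on 3L, and for 85.1%, 80.1% and 81.3% of replicate 2 peaks.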

How the data were processed

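ChIP libraries against ORC2 (2) and input DNA (1) were described in the labels. The authors deposited PeakSeq peak lists on FlyBase release 5, per the file headers, 1 for each ChIP library and 1 joined list, each peak with the authors' score in an unstated unit. No aligner, control, threshold or read depth is named there. Depth is therefore unknown, and exact 95% intervals (Clopper-Pearson for shares, Poisson for densities, and the binomial form for the ratio of site counts) cover counting error of peaks only.

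Widths include both ends. Spacing runs between midpoints, and peaks were assigned to windows and blocks by midpoint. Peaks were called shared at an overlap of 1 bp. The libraries form 1 group, and contrasts between parts of X or between arms lie within each of the 2 libraries. An exact sign-flip test over them cannot give a two-sided p below 0.5, so no p is given, and sites are not replicates. The members, lists and named sites were chosen with earlier results of these data known. Sites named are the 10 highest scores, 10 widest sites, 5 densest windows of 100 kb and 5 chains with the most sites. Also named are the 10 longest intervals between neighbouring members, 5 most isolated sites, the extreme blocks of 1 Mb and the top 5 unshared peaks by score and by width. The pairs that differed by over 2-fold in score, the crowded and sparse stretches and the parts of 5 Mb were added after the values were seen. Genes and sequences were not used here, since the available gene table follows release 6. Python 3.11.15 was used with matplotlib 3.10.9, scipy 1.17.1, pandas 2.3.3 and numpy 2.4.6, and the measures were tested on simulated lists.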

Additional observations from a re-analysis of the deposited data

How the results depend on the processing

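Peak lists limit these results through unknown read depth, so a site missing from 1 library cannot be told apart from one missed for lack of reads. Density, width, spacing and chain share describe called peaks and move with the list used, and for all values below that moved, the cause was not tested. With 1 replicate at a time, density was 64.7 to 83.7 peaks per Mb, median width 110.5 to 135 bp, median spacing 3449 to 5089 bp, nearest-neighbour distance 1139 to 1564 bp and the share in chains 50.6 to 62.6%. Empty windows then numbered 14 to 17, crowded windows 48 to 78, and the ratio of the centromere-side to the telomere-side 10 Mb was 1.01 to 1.02. The higher-scoring 50% of sites, which holds fewer sites by construction, gave 26.7 per Mb, a spacing of 17554 bp, a nearest neighbour at 6298 bp, 19.5% in chains, 35 empty windows, 1 crowded window and a ratio of 0.890. Counting sites 1 kb or less apart as 1 gave a spacing of 11440 bp, a nearest neighbour at 5532 bp, 6 crowded windows and a ratio of 0.969. With 5 kb these were 28.9 per Mb, 20987 bp, 14057 bp, 0 crowded windows and 1.04. Without the outer 1 Mb at both ends the ratio was 0.965. Ending chains at 2 or 10 kb put 23.0% or 62.3% of sites in chains. Leaving out joined sites under 50 bp moved none of the measures of the joined list beyond the spread between replicates or, for window counts, 1.5 times. The window grid moved by 50 kb gave 20 empty and 33 crowded windows. The shares with a counterpart were 44.4% and 57.3% for replicates 1 and 2 at 50% reciprocal overlap, 71.2% and 89.7% with midpoints within 500 bp, and 58.9% and 77.0% for the higher-scoring 50% of both lists. The last of these settings also removed lower-scoring peaks of the other library that could be counterparts. Without peaks under 50 bp the shares were 65.5% and 90.5%.

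The lower share in chains beyond 15 Mb, a comparison added after seeing the data with all its settings, was -20.5 percentage points in the joined list. It was -10.6 to -2.04 points with 1 replicate at a time (smallest in replicate 1), -4.94 points for the higher-scoring 50%. It was -21.2 points without sites under 50 bp, and -15.8 or -14.6 points with chains ended at 2 or 10 kb.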

Other observations

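Many peaks on X shared their score with another peak of the same library. This held for 767 of 1793 replicate 1 peaks on the whole of X (42.8%) and for 559 of 1386 replicate 2 peaks (40.3%). The most frequent score was 3.04928 in replicate 1, found 24 times, and 3.50884 in replicate 2, found 22 times. The next most frequent scores stood in simple ratios to it. In replicate 1 they were 3.8116 (13 peaks), 2.28696 (11 peaks) and 4.57392 (10 peaks), which are 1.25, 0.75 and 1.5 times the most frequent score. In replicate 2 they were 1.75442 (12 peaks) and 2.63163 (10 peaks), which are 0.5 and 0.75 times.

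Ratios of whole numbers with a denominator of at most 20, within a relative tolerance of 5e-06, matched 18.7% of X scores in replicate 1 and 20.4% in replicate 2. When the most frequent score of 2L was used as the unit for the same X peaks, 0.335% and 0.0722% matched. Among peaks under 50 bp on X the matching shares were 40.2% and 35.2%, against 15.04% and 17.2% of wider peaks.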
